A study of Mus musculus with 35 samples.

Results

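The genes described here are 7 matrix metalloproteinases (Mmp2, Mmp3, Mmp8, Mmp9, Mmp12, Mmp13 and Mmp14) and 3 tissue inhibitors of metalloproteinases (Timp1, Timp2 and Timp3), measured in mouse tracheal transplants. They were chosen by name, with earlier results of these data known. Every probe set annotated to exactly 1 of these 10 genes was taken. This gave 21 probe sets of the 22626 in the table, and 10 of its 12393 genes. At least 1 probe set of each gene passed the filter on low values (a log2 value of 5 or more in 5 or more of the 35 arrays), and 20 of the 21 probe sets did so. Where a gene had several probe sets, the one with the greatest average level stands for it, and the others are given apart.

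RNA of whole tracheal tissue was hybridised to 35 Affymetrix arrays in 7 groups of 5. Native-0 is normal trachea that was never transplanted. Iso-4, Iso-14 and Iso-25 are tracheas taken 4, 14 and 25 days after heterotopic transplantation (outside the normal airway) into recipients with compatible MHC, called isografts. Allo-4, Allo-14 and Allo-25 are tracheas taken at the same days from recipients with incompatible MHC, called allografts. All transplanted groups share the surgery, and native trachea does not have it. The labels used here state no strain, sex, age or treatment, and do not say that the arrays of a group came from separate animals, so the p-values measure the spread between arrays, which may be technical.

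Metalloproteinases are zinc-dependent enzymes that cut collagen, gelatin, elastin, laminin and other matrix proteins, and most of them are secreted as inactive proenzymes. The tissue inhibitors bind the active enzymes and block them, so that the amounts of both, and the activation of the proenzymes, set how fast matrix is cut. In airways these enzymes are known from infiltrating neutrophils and macrophages and from fibroblasts, and they take part in the repair and scarring of the airway wall. Arrays measure the mRNA of each gene and not its enzyme activity.

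Metalloproteinase promoters are known for binding sites of AP-1, the dimer of Fos and Jun proteins that acts downstream of inflammatory cytokines. Of the 10 genes, 8 had a promoter in the RefSeq table (build GRCm38.p6) and Mmp2 and Mmp9 had none there. Mmp12 had 2 entries, the second with a start inside the gene, so 9 promoters were read over the 250 bases before the start. The AP-1 letters TGANTCA, searched on both strands, stood in 3 of the 9 and in 6.75% of 32851 promoters of the same length. The 100 bases before the start are shown for these 3 and for Timp1, the inhibitor furthest from native trachea at day 4, with AP-1 letters in capitals. The Mmp3 window is chr9:7445722-7445821, that of Mmp13 is chr9:7272414-7272513, that of the second Mmp12 start is chr9:7347274-7347373 and that of Timp1 is chrX:20870066-20870165, all on the plus strand.
Mmp3: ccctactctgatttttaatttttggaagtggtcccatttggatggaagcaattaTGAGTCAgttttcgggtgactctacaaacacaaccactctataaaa
Mmp13: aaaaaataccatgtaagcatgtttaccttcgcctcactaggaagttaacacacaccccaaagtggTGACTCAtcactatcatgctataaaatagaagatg
Mmp12, second start: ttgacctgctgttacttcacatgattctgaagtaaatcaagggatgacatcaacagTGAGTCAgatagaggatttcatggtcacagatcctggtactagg
Timp1: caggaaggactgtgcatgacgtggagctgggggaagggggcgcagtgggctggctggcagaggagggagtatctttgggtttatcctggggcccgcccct

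The AP-1 letters began 46 bases before the start of Mmp3, 35 before that of Mmp13 and 44 before the second start of Mmp12. The letters TATAAA, searched on both strands, stood in the promoters of Mmp3 and Mmp13 (2 of 9, against 12.4% of all promoters). The ETS letters AGGAAG stood on either strand in 7 of 9 promoters, against 29.5% of all. No motif overlapped another in the windows shown. A match of letters is a description of the sequence and not a bound site. Mmp13, Mmp12, Mmp3 and Mmp8 lie in this order in a cluster of 10 Mmp genes on chromosome 9, while Mmp2, Mmp9 and Mmp14 lie on chromosomes 8, 2 and 14, and Timp1, Timp2 and Timp3 on X, 11 and 10.

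The arrays of a group correlated with a median r of 0.935, against 0.852 between groups, and array medians ran from 5.07 to 5.30. Native replicate 5 and Iso-25 replicate 5 stood apart: the median r with the other arrays of the group was 0.894 for the first and 0.854 for the second. The next lowest values, 0.901 for Allo-14 replicate 1 and 0.905 for Allo-25 replicate 2, were near that of native replicate 5. The mean level over 8 skin markers was 9.69 in native replicate 5 and 8.97 in Iso-25 replicate 5. Other arrays of the native and Iso-25 groups lay between 4.76 and 5.28. Raised skin marker levels were not particular to the 2 arrays that stand apart. In Iso-14, replicates 2, 3 and 4 read 7.52, 7.97 and 8.24, while no Allo-14 array read above 6.45. In Iso-4, replicates 1 and 2 read 8.22 and 7.11. In Allo-4, replicate 3 read 8.44 and replicate 1 was raised too. The part of this tissue in the day 14 differences was not tested. Airway epithelium markers had a mean level of 10.34 in native trachea and 3.66 in Allo-25, and cartilage markers 9.07 and 9.72. In bulk tissue, fewer cells of a type and less RNA per cell cannot be told apart. Where leaving out both arrays changed a call of a member, this is stated, with the value without them where the compared groups held 1 of them.

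**Figure D1:**
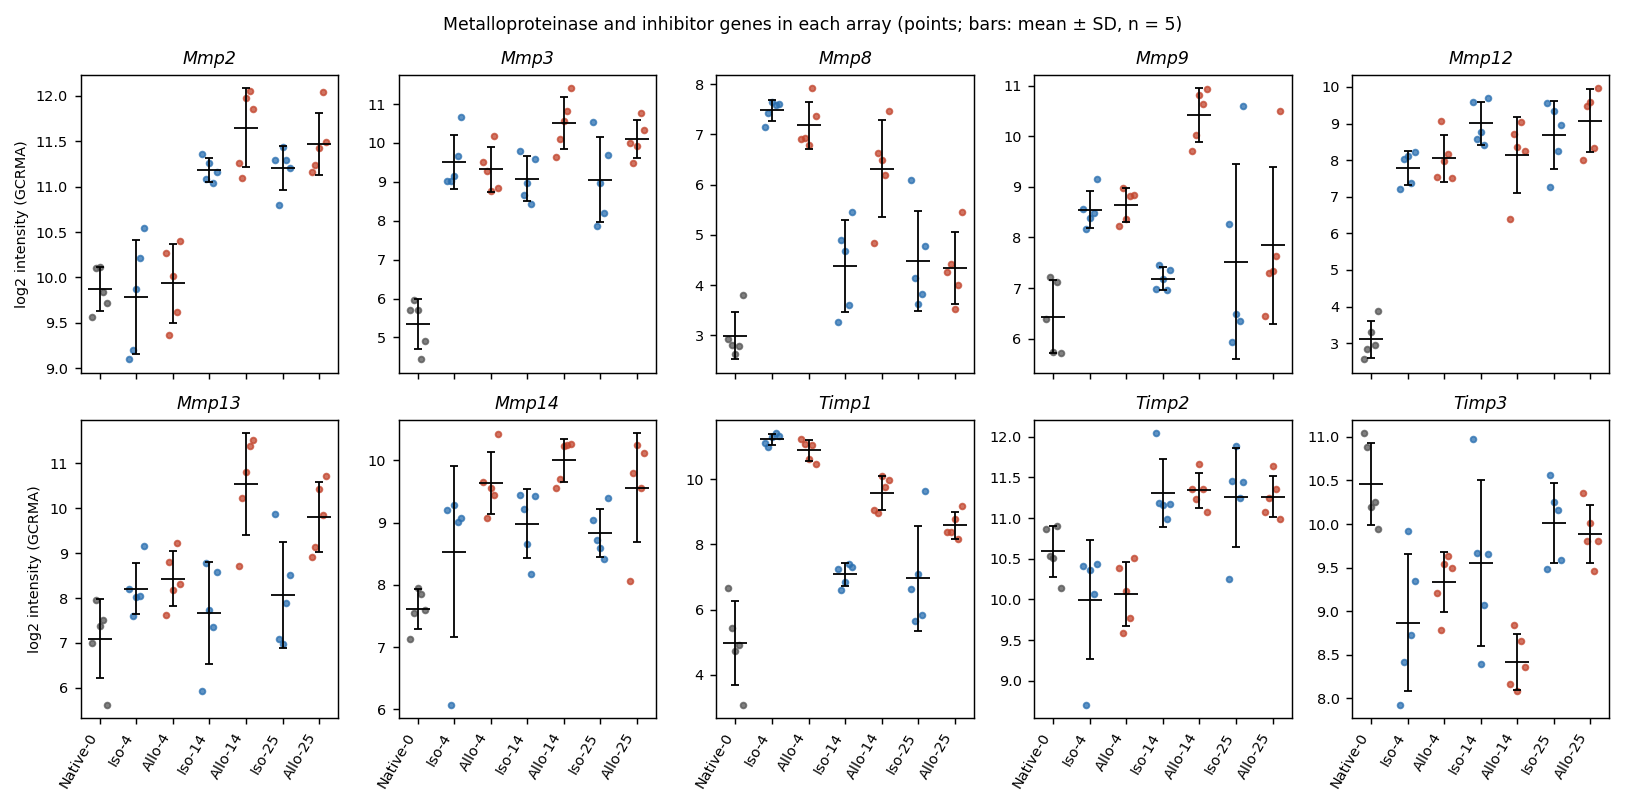
Log2 intensity (GCRMA) of the representative probe set of each of the 10 genes in every array, by group, with points for arrays and bars for the mean ± SD of 5 arrays; each panel has its own axis. Mmp9 and Timp1 stand higher in all Allo-14 arrays than in any Iso-14 array, and Mmp12 is near 3 in native trachea and above 6 in every graft array.

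Mmp9 encodes gelatinase B, which cuts denatured collagen and basement membrane collagen and is stored by neutrophils and made by macrophages. Its level was far higher in day 14 allografts than in day 14 isografts. In native trachea the 5 arrays read 6.38, 7.22, 5.73, 7.12 and 5.71 on the log2 scale. At day 4 the isografts read 8.56, 8.17, 8.38, 8.48 and 9.16 and the allografts 8.23, 8.98, 8.36, 8.81 and 8.83. Every day 4 graft array lay above the highest native array, and both kinds of graft covered the same range. At day 14 the isografts read 6.98, 7.46, 7.18, 6.96 and 7.36 and the allografts 9.71, 10.02, 10.81, 10.63 and 10.94. These groups did not overlap, and their difference was 3.23 (9.41-fold, SE 0.61, adjusted p = 0.00017, limma with Benjamini-Hochberg adjustment over all probe sets tested).

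At day 25 the isografts read 8.26, 5.93, 6.49, 6.35 and 10.59 for Mmp9 and the allografts 6.45, 7.30, 7.33, 7.63 and 10.51. Each group held 1 array above 10, and the rest lay well below the day 14 allografts. The difference was 0.32 with a 95% interval from -0.92 to 1.56 (adjusted p = 0.809), and 1.09 (adjusted p = 0.168) without the 2 arrays that stand apart. From day 14 to day 25 allografts fell by 2.58 (adjusted p = 0.0101), a call lost with only these 10 arrays in the fit (adjusted p = 0.0629) or without Allo-25 replicate 1 (-2.23, adjusted p = 0.056). Against native trachea Mmp9 rose by 2.12 in Iso-4, 2.21 in Allo-4 and 3.99 in Allo-14. The increase in the allograft-isograft difference between days 4 and 14 was 3.15 (SE 0.86, adjusted p = 0.0207). By mean level Allo-14 (10.42 ± 0.53 SD, n = 5) stood above Allo-4 (8.64 ± 0.33) without overlap, and the groups below it overlapped their neighbours in the order down to native trachea (6.43 ± 0.73).

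Mmp2 encodes gelatinase A, made by fibroblasts and other stromal cells and activated at the cell surface by the product of Mmp14. It was higher at day 14 than at day 4 in both kinds of graft, with no call between the kinds. Native trachea averaged 9.86 ± 0.24 (SD, n = 5), Iso-4 9.79 ± 0.63 and Allo-4 9.94 ± 0.44, and these 3 groups overlapped. Iso-14 averaged 11.18 ± 0.13, Iso-25 11.20 ± 0.24, Allo-14 11.65 ± 0.44 and Allo-25 11.47 ± 0.35. The lowest array of these 4 groups read 10.80 and the highest of the other 3 groups 10.55, so that days 14 and 25 stood apart from day 4 and native trachea. The rise from day 4 to day 14 was 1.39 in isografts (2.63-fold, SE 0.24, adjusted p = 7.26e-05) and 1.71 in allografts (3.28-fold, SE 0.24, adjusted p = 9.83e-06). Allografts and isografts differed by 0.47 at day 14 (95% interval -0.02 to 0.96, adjusted p = 0.193) and by 0.27 at day 25 (-0.22 to 0.76).

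Mmp8 and Mmp13 encode collagenases, which cut intact fibrillar collagen. Mmp8 is the collagenase that neutrophils store, and Mmp13 is the collagenase of cartilage and bone remodelling. Both were higher in day 14 allografts than in day 14 isografts, but their courses differed. Mmp8 was highest at day 4 in both kinds of graft, and Mmp13 reached its highest levels in allografts at days 14 and 25.

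For Mmp8 the native arrays read 2.93, 2.81, 2.64, 2.78 and 3.81, below the median of every array, and a fold against such values depends on the background model of the authors' method. At day 4 the isografts read 7.14, 7.42, 7.64, 7.58 and 7.61 and the allografts 6.91, 6.93, 6.78, 7.92 and 7.36. The day 4 arrays were thus high in both groups, 4.48 above native in isografts and 4.18 in allografts (adjusted p = 1.58e-09 and 4.75e-09). At day 14 the isografts read 3.27, 4.90, 4.67, 3.60 and 5.46 and the allografts 4.83, 6.63, 6.49, 6.19 and 7.46. The lowest allograft array lay within the isograft range, and the other 4 lay above it. The difference was 1.94 (3.84-fold, SE 0.44, adjusted p = 0.00146). All Iso-14 arrays but replicate 5 read under the filter value of 5, so this fold depends on the background model too.

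At day 25 Mmp8 read 6.09, 4.14, 3.62, 3.82 and 4.77 in isografts and 4.27, 4.43, 3.52, 4.01 and 5.45 in allografts. These ranges overlapped, and the difference was -0.15 (95% interval -1.05 to 0.74). In isografts Mmp8 fell by 3.10 between days 4 and 14 (adjusted p = 4.46e-06), and in allografts it fell by 1.98 between days 14 and 25 (adjusted p = 0.00574, and adjusted p = 0.052 when these arrays were fitted alone). The allograft-isograft difference grew by 2.24 from day 4 to day 14 (SE 0.62, adjusted p = 0.0235), which was not called without Iso-14 replicate 4 (2.05, adjusted p = 0.0515) or Allo-14 replicate 5 (1.96, adjusted p = 0.0565). At day 25 Mmp8 stayed above native trachea by 1.49 in isografts and 1.34 in allografts (adjusted p = 0.0193 and 0.0173). The first call was lost without Iso-25 replicate 1 (1.09, adjusted p = 0.0877) and the second without Allo-25 replicate 5 (1.06, adjusted p = 0.0699). Without the 2 arrays that stand apart, of which native replicate 5 read highest for Mmp8 in its group, these excesses were 1.63 and 1.55 and both were called. For Iso-14 the excess of 1.38 was lost as a call without replicate 2 (1.25, adjusted p = 0.053) or 5 (1.11, adjusted p = 0.0673).

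For Mmp13 the native arrays read 7.01, 7.95, 7.37, 7.52 and 5.63. At day 4 the isografts read 8.20, 7.61, 8.03, 8.04 and 9.15 and the allografts 7.62, 8.81, 8.18, 9.23 and 8.32. All 3 groups overlapped, and neither graft was called against native trachea (1.11 and 1.34, adjusted p = 0.105 and 0.0509). The Allo-4 difference was called under 7 of 20 alternatives, and the Iso-4 difference with only the compared arrays in the fit. At day 14 the isografts read 5.92, 8.78, 7.73, 7.35 and 8.57 and the allografts 8.72, 10.23, 10.80, 11.38 and 11.53. Allo-14 replicate 1 lay just below the highest isograft, and the other 4 allografts lay above all isografts. The difference was 2.86 (7.28-fold, SE 0.56, adjusted p = 0.000271).

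At day 25 Mmp13 read 9.88, 7.10, 6.97, 7.88 and 8.52 in isografts and 8.91, 9.14, 10.43, 9.84 and 10.72 in allografts. Iso-25 replicate 1 lay inside the allograft range and the other isografts below it. The difference was 1.74 (3.34-fold, SE 0.56, adjusted p = 0.0298). That call was lost when these 10 arrays were fitted alone (adjusted p = 0.07) and without any 1 of Iso-25 replicates 2, 3 or 4 or Allo-25 replicates 3, 4 or 5 (1.47 to 1.73, adjusted p up to 0.106). Mmp13 was above native trachea by 3.44 in Allo-14 and 2.71 in Allo-25 (adjusted p = 7.84e-06 and 0.000248), and no isograft group was called against native. Allografts rose by 2.10 from day 4 to day 14 (adjusted p = 0.0149), though not without Allo-14 replicate 4 (1.89, adjusted p = 0.0509) or 5 (1.85, adjusted p = 0.0529). The allograft-isograft difference grew by 2.64 between those days (adjusted p = 0.0375), a call lost under 12 of 30 alternatives (2.20 to 3.09 over all of them, adjusted p up to 0.0796).

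Mmp3 encodes stromelysin-1, an enzyme of fibroblasts and macrophages that cuts proteoglycans and laminin and activates other proenzymes. It was high in every graft group and higher in allografts than isografts at day 14. The native arrays read 5.70, 5.97, 5.70, 4.44 and 4.92. Day 4 isografts read 9.03, 9.03, 9.14, 9.66 and 10.66 and the allografts 9.52, 9.28, 8.77, 10.18 and 8.85. No graft array overlapped native trachea, and the excess was 4.16 and 3.97 (17.8-fold and 15.7-fold). Native replicates 4 and 5 read under the filter value of 5, so these folds depend on the background model too. Day 14 isografts read 9.78, 8.65, 8.96, 8.43 and 9.58 and the allografts 9.64, 10.11, 10.57, 10.81 and 11.41. Iso-14 replicate 1 reached into the allograft range and the other isografts lay below it, and the difference was 1.43 (2.69-fold, SE 0.42, adjusted p = 0.0147). It was not called without Allo-14 replicate 5 (1.20, adjusted p = 0.058). At day 25 the isografts ran from 7.87 to 10.54 (mean 9.05 ± 1.09) and the allografts from 9.48 to 10.77 (10.10 ± 0.48), a difference of 1.05 (adjusted p = 0.0976). This last difference was called with array weights (1.61, adjusted p = 0.00402) or without Iso-25 replicate 1 (1.42, adjusted p = 0.0133).

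Mmp12 encodes macrophage elastase, which cuts elastin. It was near the bottom of the scale in native trachea, where the arrays read 2.56, 2.84, 3.30, 2.95 and 3.88, and it was high in all grafts. The means were 7.79 ± 0.46 in Iso-4, 9.01 ± 0.59 in Iso-14, 8.68 ± 0.93 in Iso-25, 8.05 ± 0.64 in Allo-4, 8.15 ± 1.04 in Allo-14 and 9.08 ± 0.86 in Allo-25. The lowest graft array was Allo-14 replicate 1 at 6.38, above the highest native array at 3.88, and neighbouring graft groups in the order of means overlapped. The excess over native ran from 4.69 in Iso-4 to 5.97 in Allo-25 (SE 0.45, adjusted p = 9.48e-10 and 1.69e-12). Allografts and isografts differed by 0.26 at day 4 (95% interval -0.66 to 1.17), -0.86 at day 14 (-1.77 to 0.05) and 0.40 at day 25 (-0.52 to 1.31), with no call. In isografts Mmp12 rose by 1.22 from day 4 to day 14 (adjusted p = 0.0488), a call lost under 10 of 20 alternatives (1.05 to 1.36 over all of them, adjusted p up to 0.124).

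Mmp14 encodes MT1-MMP, a membrane-anchored enzyme that cuts collagen at the cell surface and activates the product of Mmp2. It was higher in allografts than in native trachea at every day. The native arrays read 7.13, 7.55, 7.95, 7.86 and 7.60, and the allograft groups averaged 9.63 ± 0.50, 10.00 ± 0.34 and 9.56 ± 0.87 at days 4, 14 and 25. No allograft array overlapped native trachea, and the excess was 2.02, 2.39 and 1.94 (adjusted p = 0.000324, 3.6e-05 and 0.000596). At day 14 the isografts read 9.44, 9.22, 8.66, 8.17 and 9.43 and the allografts 9.56, 9.70, 10.23, 10.25 and 10.27. These arrays did not overlap, yet the difference of 1.02 (SE 0.43, adjusted p = 0.103) was not called. It was called when the 10 arrays were fitted alone (adjusted p = 0.0215). Isografts exceeded native by 0.92, 1.37 and 1.21 at days 4, 14 and 25, and the day 14 excess was the called value (adjusted p = 0.0176, and 0.0526 without native replicate 1). Iso-4 replicate 2 read 6.08 while the other Iso-4 arrays read 9.01 to 9.29, and without it the day 4 excess was 1.53 (adjusted p = 4e-04). The day 25 excess (adjusted p = 0.0504) was called under 7 of its alternatives.

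Timp1 encodes a secreted inhibitor of most soluble metalloproteinases that is known to be induced by injury and cytokines. It was far above native trachea at day 4, and was higher in allografts than isografts at days 14 and 25. The native arrays read 6.65, 5.45, 4.72, 4.91 and 3.09, 3 of them under the filter value of 5, so folds against them depend on the background model too. At day 4 the isografts read 11.09, 10.97, 11.30, 11.40 and 11.32 and the allografts 11.23, 11.07, 10.60, 11.04 and 10.47. The day 4 groups overlapped each other and lay above every native array, with an excess of 6.25 in isografts (76.2-fold, SE 0.50) and 5.92 in allografts (60.4-fold). Day 14 isografts read 7.25, 6.60, 6.83, 7.41 and 7.30 and the allografts 9.06, 8.96, 10.09, 9.76 and 9.97. These groups did not overlap, and the difference was 2.49 (5.62-fold, SE 0.50, adjusted p = 0.000411).

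At day 25 Timp1 read 6.62, 5.65, 7.08, 5.82 and 9.63 in isografts and 8.39, 8.37, 8.79, 8.17 and 9.17 in allografts. Iso-25 replicate 5, an array that stands apart, read above all allografts, and the other isografts read below them. The difference was 1.62 (3.07-fold, SE 0.50, adjusted p = 0.0239), and 2.29 (adjusted p = 2.29e-06) without the 2 arrays that stand apart. It was not called when these 10 arrays were fitted alone (adjusted p = 0.145), without Iso-25 replicates 2 or 4 (1.29 and 1.34), or without Allo-25 replicates 3 or 5 (1.57 and 1.47). In isografts Timp1 fell by 4.14 from day 4 to day 14 (adjusted p = 3.58e-07). The corresponding change in allografts was -1.31 (95% interval -2.34 to -0.29, adjusted p = 0.109), with no overlap between those arrays. This change was called without the 2 arrays that stand apart, neither of which is in these groups. The allograft-isograft difference grew by 2.83 between days 4 and 14 (SE 0.71, adjusted p = 0.0111). Iso-25 exceeded native by 1.99 (adjusted p = 0.00697), which was 0.86 (adjusted p = 0.0693) without the 2 arrays that stand apart and was not called when these arrays were fitted alone (adjusted p = 0.125).

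Timp3 encodes an inhibitor that is bound to the matrix and also blocks ADAM proteases. On its representative probe set it was lower in grafts than in native trachea at days 4 and 14. The native arrays read 11.04, 10.88, 10.20, 10.25 and 9.94. At day 4 the isografts read 7.93, 8.42, 9.92, 8.73 and 9.35 and the allografts 9.21, 8.79, 9.54, 9.63 and 9.50. Neither group overlapped native trachea, and the differences were -1.60 and -1.13 (adjusted p = 0.000421 and 0.00836). Day 14 isografts read 10.97, 9.67, 8.40, 9.07 and 9.66 and the allografts 8.17, 8.84, 8.08, 8.66 and 8.36. The isografts were widely spread, and Iso-14 replicate 3 lay within the allograft range. At day 25 the isografts averaged 10.01 ± 0.45 and the allografts 9.89 ± 0.33, both overlapping native trachea.

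Against native trachea Timp3 differed by -2.04 in Allo-14 (adjusted p = 1.49e-05), where no array overlapped, and by -0.91 in Iso-14 (adjusted p = 0.0465). The Iso-14 value was not called under 13 of 20 alternatives (-1.27 to -0.62 over all of them, adjusted p up to 0.175), the replicate block among them (adjusted p = 0.0612). The day 14 allograft-isograft difference was -1.13 (SE 0.35, adjusted p = 0.0188). It was not called without Iso-14 replicate 1 (-0.78, adjusted p = 0.0973) or Allo-14 replicate 3 (-1.04, adjusted p = 0.0527), with these arrays fitted alone (adjusted p = 0.0693) or over the mean of the Timp3 probe sets (-0.57, adjusted p = 0.19). The allografts rose by 1.46 from day 14 to day 25 (SE 0.35, adjusted p = 0.0105). The change in the allograft-isograft difference from day 4 to day 14 was -1.60 (adjusted p = 0.0439), not called under 17 of 30 alternatives (-1.88 to -0.87 over all of them, adjusted p up to 0.252). With the replicate block it was not called either (adjusted p = 0.0628).

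Timp2 encodes an inhibitor that also takes part in the activation of the Mmp2 product by MT1-MMP. Like Mmp2 it was higher at day 14 than at day 4 in both kinds of graft, with no call between the kinds. Native trachea averaged 10.59 ± 0.31, Iso-4 10.00 ± 0.73 and Allo-4 10.07 ± 0.40. Iso-14 averaged 11.31 ± 0.42, Allo-14 11.34 ± 0.22, Iso-25 11.26 ± 0.61 and Allo-25 11.26 ± 0.25. The rise from day 4 to day 14 was 1.31 in isografts and 1.27 in allografts (SE 0.28, adjusted p = 0.000921 and 0.00311), with no overlap of arrays in either. Allografts and isografts differed by 0.08, 0.03 and 0.01 at days 4, 14 and 25, and the 95% interval at day 4 ran from -0.49 to 0.65. Against native trachea Allo-14 was higher by 0.75 (adjusted p = 0.0289), a call lost under 6 of 20 alternatives (0.48 to 0.88 over all of them, adjusted p up to 0.0831), among them the fit without the 2 arrays that stand apart (0.64, adjusted p = 0.0771). Over the 5 probe sets tested this difference ran from -0.13 to 0.95, and 2 were called higher. Iso-14, Iso-25 and Allo-25, with means close to that of Allo-14, were not called but gained a call under 5, 4 and 4 of 20 alternatives.

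**Figure D2:**
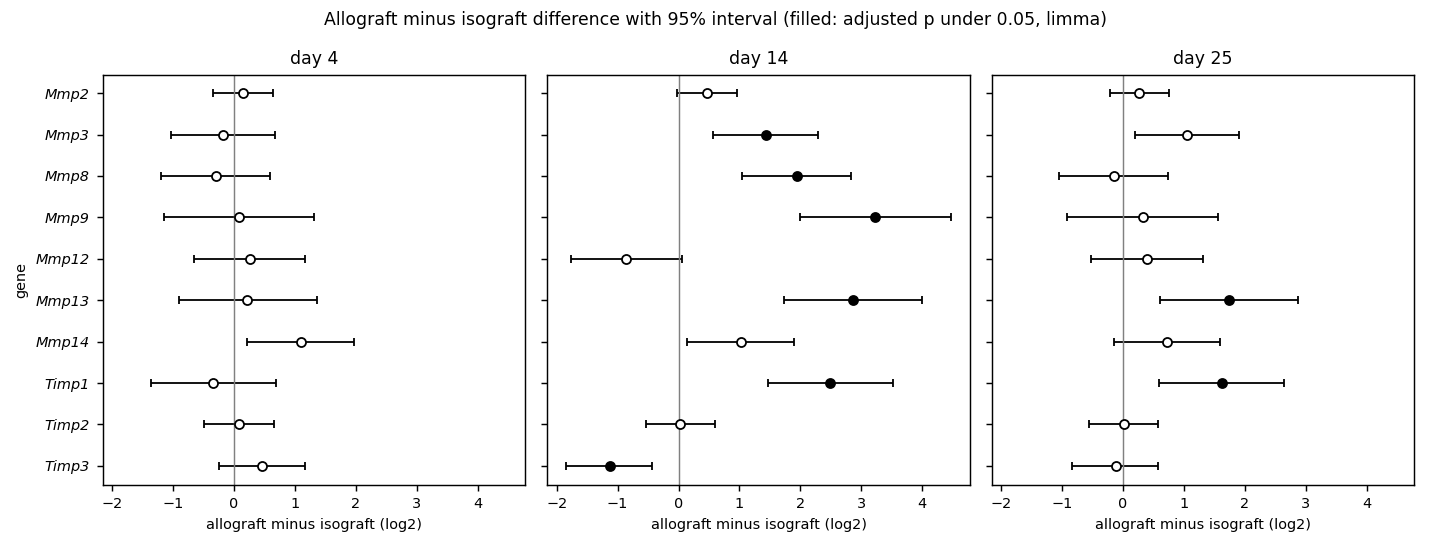
Allograft minus isograft difference (log2) of the 10 genes at days 4, 14 and 25, with 95% intervals and filled points where the adjusted p was under 0.05 (limma). No point is filled at day 4, 6 are filled at day 14 and 2 at day 25.

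Counts of genes here and below take 1 representative probe set per gene, while shares are over all probe sets tested, so the units differ. The genes were chosen with earlier results of these data known, so counts beside shares are a description. Counted over the 10 genes, none was called between allografts and isografts at day 4, where 0.600% of the 13678 probe sets tested were called. The median difference was 0.12 for the 10 genes and 0.01 over all. At an unadjusted p under 0.05 limma gave 1 of 10, Mmp14 with a 2.14-fold difference, a share near the 5.34% of all probe sets under that threshold. That Mmp14 value includes Iso-4 replicate 2, which read 6.08 where the other Iso-4 arrays read 9.01 to 9.29. Over the 20 alternatives its log2 difference ran from 0.48 to 1.29, with no call. At day 14, 6 of 10 were called, against 18.4% of all probe sets. Mmp3, Mmp8, Mmp9, Mmp13 and Timp1 were higher and Timp3 lower in allografts, with a median over the 10 genes of 1.22 and over all probe sets of 0.05. Of the genes with several probe sets, Mmp9 was called on 2 of 2 and Timp3 on 1 of 4. Mmp2 and Mmp14 (2 probe sets each) and Timp2 (5 tested) were called on none. Mmp9, Mmp14 and Timp1 were the genes without overlap of arrays (3 of 10, against 14.3% of all probe sets). At day 25, 2 of 10 were called, Mmp13 and Timp1, against 14.9% of all probe sets, and the median was 0.36. This count was 0 with only those 10 arrays in the fit.

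The change of the allograft-isograft difference from day 4 to day 14 was called for 5 of 10 genes, against 6.38% of all probe sets. It was higher for Mmp8, Mmp9, Mmp13 and Timp1 and lower for Timp3. The count was 3 without Iso-4 replicate 1, Iso-14 replicates 1 or 4, Allo-4 replicates 3 or 5 or Allo-14 replicates 3 or 4, each left out alone, and 2 without Allo-14 replicate 5. From day 14 to day 25 no member was called, against 1.07% of all probe sets. At an unadjusted p under 0.05 limma gave 3 of 10, which were Mmp8 (-2.10), Mmp9 (-2.91) and Timp3 (1.01), where 8.86% of all probe sets were under that threshold. Leaving out Allo-25 replicate 5 brought 2 calls, Mmp8 (-2.37, adjusted p = 0.0433) and Mmp9 (-3.58, adjusted p = 0.00799). Leaving out Allo-14 replicate 1 brought a call for Mmp8 (-2.47) and leaving out Iso-25 replicate 2 a call for Mmp9 (-3.31).

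**Figure D3:**
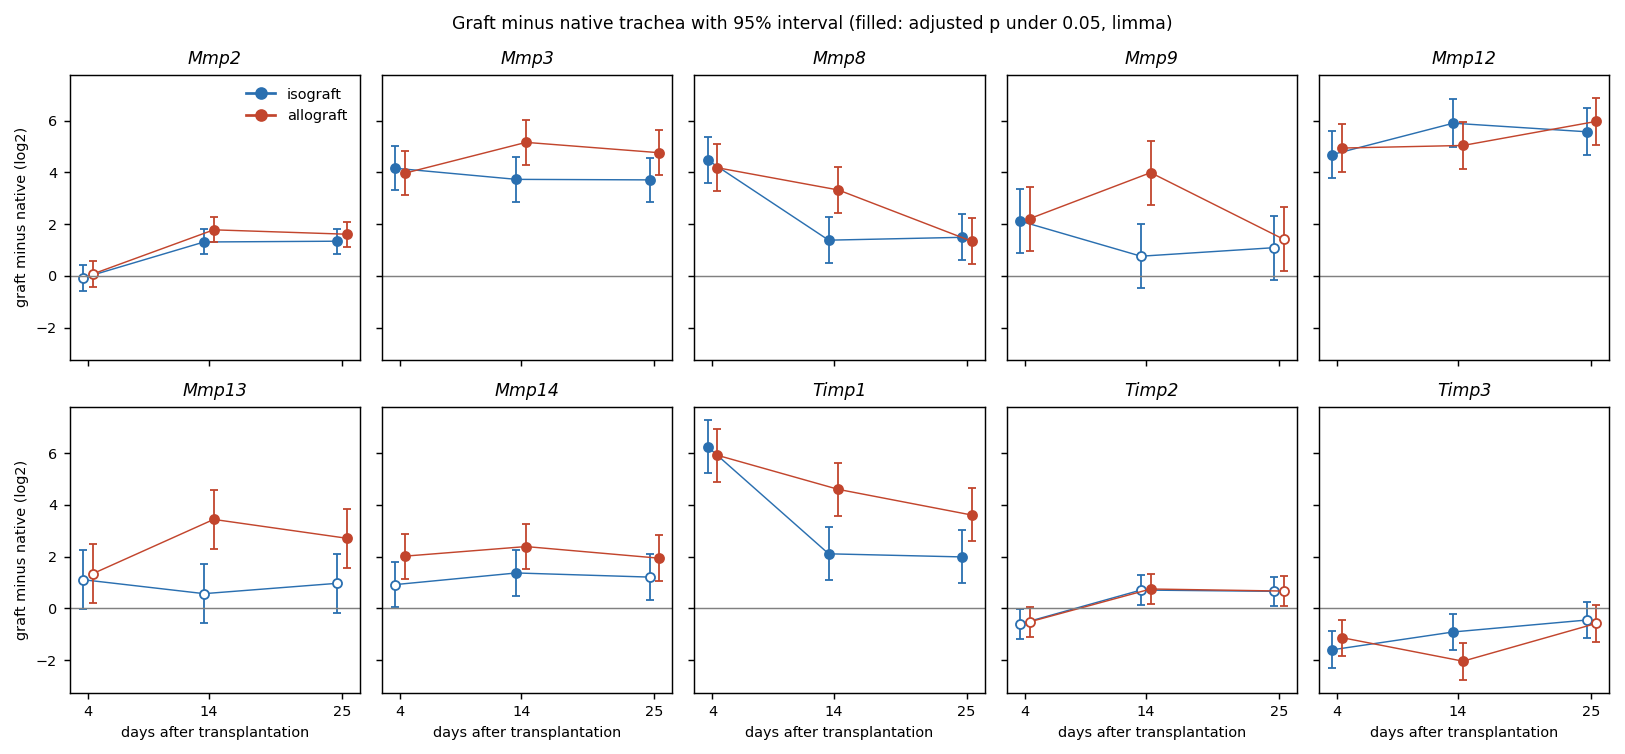
Difference from native trachea (log2) of the 10 genes in isografts and allografts at days 4, 14 and 25, with 95% intervals and filled points where the adjusted p was under 0.05 (limma). Both lines lie together at day 4 and separate most at day 14 for Mmp8, Mmp9, Mmp13 and Timp1, and the 6 comparisons share the same 5 native arrays.

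Against native trachea 6 of 10 genes were called in Iso-4, when 44.3% of all probe sets were. In Iso-14, 7 of 10 were called against 28.8%, and in Iso-25, 5 of 10 against 16.1%. In Allo-4, 7 of 10 were called against 44.8%, in Allo-14 all 10 against 46.1%, and in Allo-25, 7 of 10 against 36.0%. Mmp3, Mmp8, Mmp12 and Timp1 were called higher in all 6 comparisons, which share the same 5 native arrays and are not independent. On the representative probe sets Timp3 was the 1 gene called lower, in Iso-4, Iso-14, Allo-4 and Allo-14. In Allo-14 no gene's arrays overlapped those of native trachea, with 9 higher and Timp3 lower, and 27.3% of all probe sets had no overlap there.

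Within isografts 5 of 10 genes were called between days 4 and 14, against 22.0% of all probe sets. Mmp2, Mmp12 and Timp2 rose and Mmp8 and Timp1 fell. Between days 14 and 25 no isograft member was called and the share over all probe sets was 0%. In limma no member and 882 of 13678 probe sets had an unadjusted p under 0.05 there, and the differences ran from -0.33 for Mmp12 to 0.46 for Timp3. Within allografts 3 of 10 were called between days 4 and 14, against 7.99%, and these were Mmp2, Mmp13 and Timp2, all higher at day 14. The count was 5 without the 2 arrays that stand apart, when Mmp9 and Timp1 (1.78 and -1.31) were called too. Between days 14 and 25, 3 of 10 were called in allografts against 3.08%, with Mmp8 and Mmp9 lower and Timp3 higher at day 25. For Mmp9 the isograft difference between days 4 and 14 was -1.36 without a call (adjusted p = 0.108), although those arrays did not overlap, and it was called on its other probe set (-1.94, adjusted p = 0.0437) and without the 2 arrays that stand apart.

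**Figure D4:**
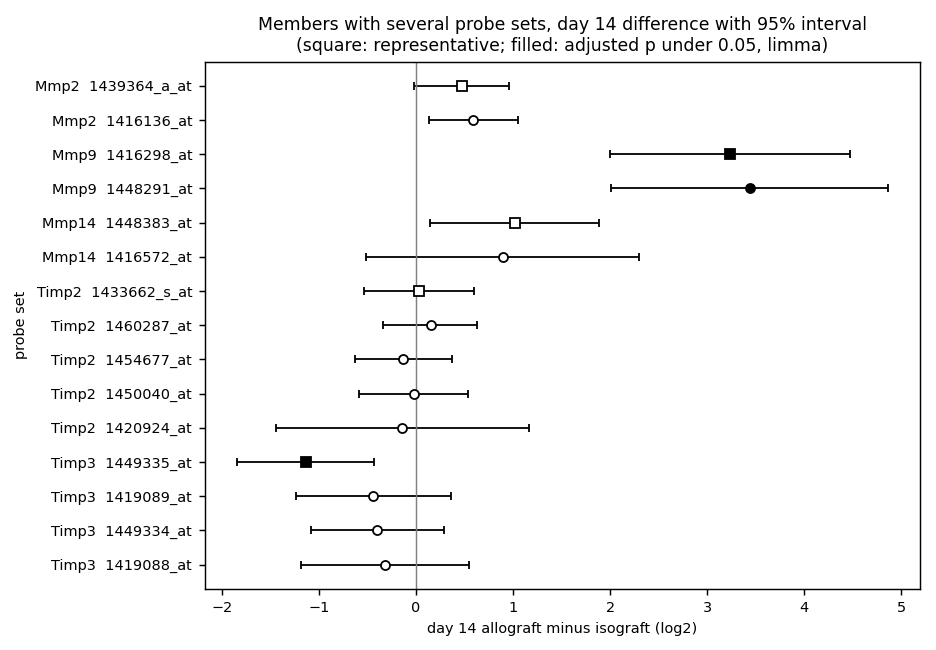
Day 14 allograft minus isograft difference (log2) with 95% interval for each tested probe set of the 5 genes with several, with squares for the representative and filled marks for an adjusted p under 0.05 (limma). Both Mmp9 probe sets are filled, while 1 of 4 Timp3 probe sets is.

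Several probe sets measured 5 of the genes (2 each for Mmp2, Mmp9 and Mmp14, 6 for Timp2 and 4 for Timp3). Both Mmp9 probe sets were called higher in day 14 allografts (3.23 and 3.44), and both Mmp2 probe sets correlated at 0.99 over the 35 arrays. For Timp3 the day 14 allograft-isograft difference was called on 1 of 4 probe sets, and they ran from -1.13 to -0.32. All 4 Timp3 probe sets were called lower than native trachea in Iso-4, Iso-14, Allo-4 and Allo-14. In Iso-25, 2 of the 4 were called lower (-1.18 and -1.26, adjusted p = 0.0159 and 0.0396), although the representative was not, and in Allo-25 none was. The Timp2 probe sets disagreed against native trachea, with 1 of 5 called lower in Allo-4 and a range from -1.40 to 0.13. In both kinds of graft 4 of the 5 Timp2 probe sets tested were called higher at day 14 than at day 4. The sixth Timp2 probe set stayed below the filter, between 2.93 and 4.99. Both Mmp14 probe sets were called higher than native trachea in all 3 allograft groups.

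Other genes of the same system were read from lists. Of 15 other metalloproteinases, inhibitors and partners on the array 7 passed the filter, and Mmp10, Mmp16, Mmp17, Mmp19, Mmp1a, Mmp1b, Mmp20 and Mmp7 did not. At day 14, 1 of the 7 was higher and 2 were lower in allografts (median -0.36), against 18.4% of all probe sets called. Timp4, a further tissue inhibitor, differed by -2.29 (SE 0.55, adjusted p = 0.0026) and Reck, a membrane-anchored inhibitor, by -1.32 (SE 0.30, adjusted p = 0.00161). At day 25, 1 of 7 was lower, a share near the 14.9% of all probe sets called. It was Bsg, the inducer of metalloproteinases on stromal cells also called CD147, by -1.24 (adjusted p = 0.00652). Against native trachea 3 of these 7 were higher and 2 lower in Iso-4, and 3 higher and 2 lower in Allo-14. The shares over all probe sets were 44.3% and 46.1% there. None of the 7 was called between allografts and isografts at day 4, against 0.600% of all probe sets.

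Of the plasminogen activator system, whose product plasmin activates metalloproteinase proenzymes, 5 genes were tested. At day 14, when 18.4% of all probe sets were called, 3 of the 5 genes were higher in allografts and none lower (median 0.97). They included Serpinb2, an inhibitor of plasminogen activators, by 2.78 (SE 0.67, adjusted p = 0.00272) and S100a10, a plasminogen receptor subunit, by 0.97 (SE 0.32, adjusted p = 0.0281). None of the 5 was called at day 25 (median -0.20), against 14.9% of all probe sets. Of 14 ADAM and ADAMTS proteases 5 were higher and 2 lower at day 14 (median 0.23), against 18.4% of all probe sets. At day 25, 4 were higher and 3 lower (median 0.03), against 14.9%. Adamdec1 and Adam28, ADAM-family proteases known from lymphoid tissue, differed by -3.55 and -2.84 at day 14 and by -4.11 and -4.44 at day 25. Adamdec1 averaged 3.25 in Allo-14 and 3.26 in Allo-25, and Adam28 averaged 3.37 in Allo-25, all under the filter value of 5. The cells that carried these 2 genes here were not tested.

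Of 17 matrix substrates 5 were higher and 2 lower in day 14 allografts (median 0.29), against 18.4% of all probe sets called. Eln, the elastin that Mmp12 cuts, differed by -2.93 (SE 0.29, adjusted p = 3.39e-09) and Vcan, the proteoglycan versican, by 2.01 (SE 0.34). At day 25, when 14.9% of all probe sets were called, 4 were higher and 2 lower. Among them Vcan was at 1.73 and Sdc1, a cell surface proteoglycan, at -1.61. The inducers of metalloproteinase genes tested were 12 cytokines and factors of the AP-1, ETS and other families. At day 14, 1 was higher and 1 lower (median 0.70), a share near the 18.4% of all probe sets called. Il1b, which induces metalloproteinases in fibroblasts and cartilage, was higher by 1.86 (SE 0.51, adjusted p = 0.00835). Its means were 4.77 ± 0.40 in native trachea, 9.45 ± 0.28 in Iso-4, 9.71 ± 0.48 in Allo-4, 7.30 ± 0.64 in Iso-14 and 9.16 ± 0.60 in Allo-14. Ets2, a factor of the ETS family, differed by -0.86 at day 14 and -1.05 at day 25. At day 25 Ets2 was the 1 inducer of the 12 called, so Il1b was not, against 14.9% of all probe sets (median -0.20). The mean level of the 12 was 7.51 in native trachea, 7.88 in Iso-25 and 7.50 in Allo-25. Against native trachea 6 of the 12 inducers were higher and 1 lower in Iso-4, and 6 higher and 2 lower in Allo-4, where 44.3% and 44.8% of all probe sets were called.

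**Figure D5:**
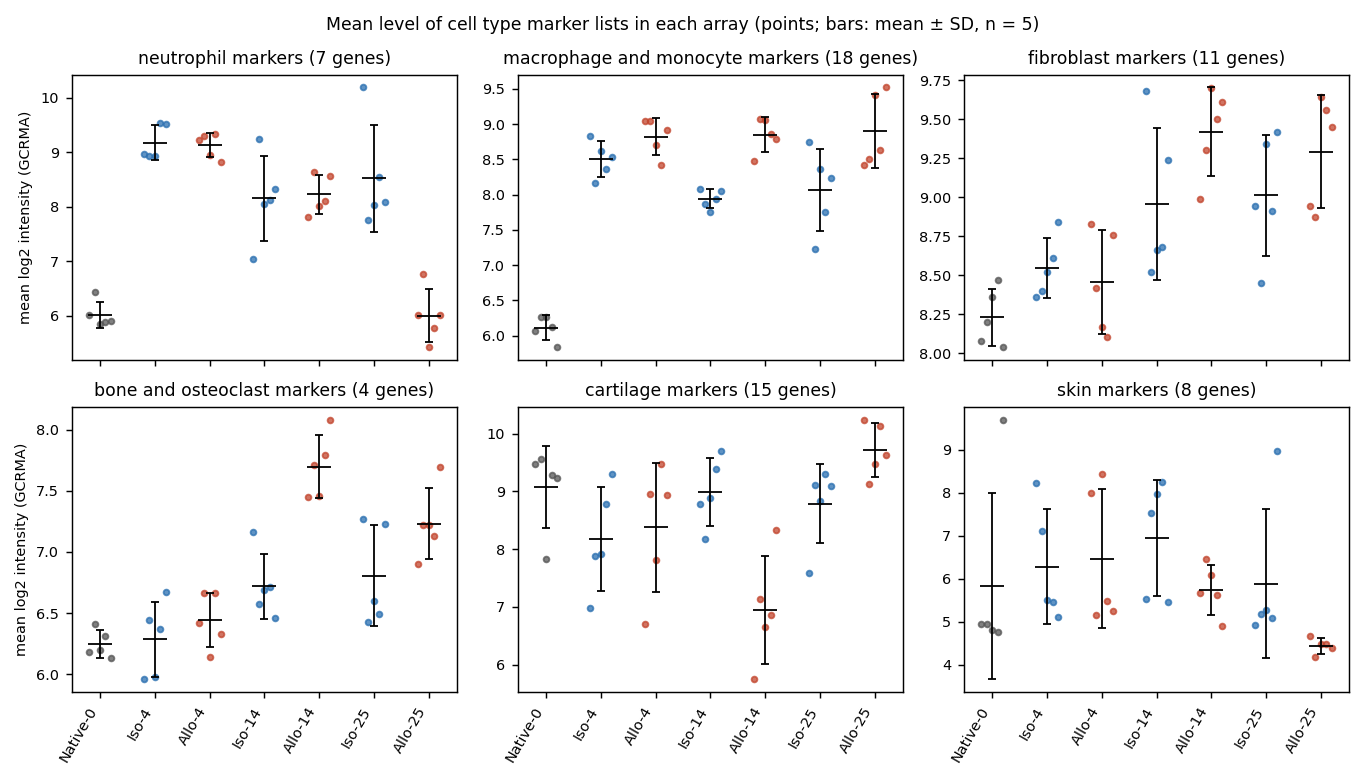
Mean log2 intensity per array over the tested markers of 6 cell or tissue types (neutrophil, macrophage and monocyte, fibroblast, bone and osteoclast, cartilage, skin), by group, with bars for the mean ± SD of 5 arrays. Macrophage markers lie between 5.84 and 6.27 in native trachea and between 7.23 and 9.52 in the grafts, and cartilage markers average 6.95 in Allo-14.

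Markers of the cells known to make these enzymes moved between the same groups, and their part in the results was not tested. Over all probe sets, 0.600%, 18.4% and 14.9% were called between allografts and isografts at days 4, 14 and 25. The counts of every marker list below stand beside these shares. Of 18 macrophage and monocyte markers 8 were higher and 1 lower in day 14 allografts (median 0.88), and 9 higher and 2 lower at day 25 (median 1.04). Their level ran from 7.75 to 8.08 in Iso-14 and from 8.47 to 9.08 in Allo-14. At day 14 they included Fcgr1 and Msr1, receptors for antibody and for modified lipoprotein (2.76 and 1.92), and at day 25 Adgre1 and C1qb, a surface receptor and a complement chain (2.40 and 2.25). At day 4, 1 of the 18 was called, C1qb (1.17, adjusted p = 0.0111). The macrophage marker Marco lay below the filter.

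Of 7 neutrophil markers tested 1 was higher (Fpr2, a formyl peptide receptor, by 2.59) and 1 lower (Ltf, lactoferrin, by -4.10) in day 14 allografts. At day 25, 4 of the 7 were lower and none higher (median -2.38), with Ltf at -9.96 and Lcn2, a granule protein that epithelium also makes, at -3.75. Camp, Ctsg, Elane, Itgb2l, Mpo, Ngp and Prtn3, granule genes of immature neutrophils among them, lay below the filter. Ltf read 14.16 ± 0.06 in native trachea, so in this tissue it does not mark neutrophils alone, and it was left out after its values were seen. Over the other 6 markers the level was 4.66 in native trachea, 8.69 in Iso-4 and 8.72 in Allo-4. It was 7.25 in Iso-14 (5.94 to 8.50), 8.02 in Allo-14 (7.25 to 8.84), 7.69 in Iso-25 and 6.41 in Allo-25. Lcn2 was kept among these 6. Over all 7 tested markers, Ltf included, the level was 8.15 in Iso-14 and 8.23 in Allo-14. The day 14 gap in level thus depended on leaving out Ltf. Over all 7 the level was 6.02 in native trachea, and Allo-25 ran from 5.43 to 6.76.

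Of 11 fibroblast markers 3 were higher and 1 lower at day 14 (Fbln2 and Thy1, a fibulin and a surface glycoprotein, by 2.37 and 1.90), and 2 higher and 1 lower at day 25, with the matrix protein Postn higher by 1.83. Of 4 bone and osteoclast markers 2 were higher at day 14, Tnfsf11, the osteoclast cytokine RANKL, by 1.91 and Acp5, an acid phosphatase of osteoclasts and macrophages, by 1.46, and 1 at day 25, Alpl, an alkaline phosphatase, by 0.42. Calcr, Ibsp, Ocstamp, Sp7 and Tnfrsf11a lay below the filter. Of 15 cartilage markers 9 were lower in day 14 allografts and none higher (median -1.92), with Chad, a cartilage matrix protein, at -3.83 and the collagen Col9a1 at -3.55. Mmp13 was higher in the same comparison. At day 25, when Mmp13 was still higher in allografts, 1 of the 15 was called, Col11a1, higher by 1.46.

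Airway epithelium markers were lower in 11 of 12 cases at day 14 and in 12 of 12 at day 25, with the secreted Scgb3a2 and Bpifa1 at -8.44 and -7.70 at day 14. Skeletal muscle markers, which mark neighbouring tissue, were lower in 6 of 12 cases at day 14 and in none at day 25, with the myosin Myh1 and the troponin Tnnc2 at -6.48 and -6.12. Of 8 skin markers 1 was lower at day 14 and 2 at day 25, with Calml3 at -2.30 and -3.12 and the keratin Krt14 at -3.56 at day 25. For Timp3, which was lower in Allo-14, the part of these tissues in the difference was not tested.

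Likeness was measured as Pearson's r of log2 values over the 35 arrays, which share the group structure, and is given as a description. Among the members Mmp3 and Mmp12 had the highest r (0.85), then Timp1 and Mmp8 (0.84), Mmp2 and Timp2 (0.78), and Mmp9 and Mmp13 (0.73). Timp3 had negative r with 8 of the other 9, down to -0.64 with Mmp8 and Mmp9. Of other genes, Mmp2 was most like Ctsk (0.93), Htra1 (0.93) and Mdk (0.89). Mmp3 was most like Ms4a7, Ctss and Tyrobp (0.93 each), and Mmp12 most like Ctss (0.93), Clec7a and Abca1 (0.90 each). Mmp8 was most like Ccr1, Trip13 and Cks2 (0.92 each), and Mmp9 most like Pdia5, Loxl3 (0.83 each) and Cyp7b1 (0.82).

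Mmp13 was most like Cxcl16 (0.87), Tlr2 (0.84) and Epb41l3 (0.83), and Mmp14 most like Was (0.86), Bcl2l11 (0.84) and P3h3 (0.82). Timp1 was most like Pf4 and Ccl9 (0.96 each) and Il4ra (0.94), and Timp2 most like Cygb (0.86), Islr (0.84) and Itgbl1 (0.82). Timp3 was most like Zfr (0.83), Fzd7 (0.80) and Pla2g5 (0.78).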

How the data were processed

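The deposited table holds log2 intensities per probe set, which the authors made with GCRMA 1.1.3, per the submitters' processing notes; GCRMA estimates and removes background and brings arrays to a common scale. Per the labels, total RNA came from TRIzol and a column cleanup, and biotin-labelled cRNA was hybridised. Values ran from 0.317 to 15.53, with no detection calls used. Of 22690 probe sets, 64 controls were left out. The platform annotation given with the series names 1 gene for 20380 of the rest, several for 691 and none for 1555. The filter left 13678 for testing.

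A limma 3.58.1 model (R 4.3.3) with 1 mean per group took all 35 arrays (28 residual degrees of freedom), with Benjamini-Hochberg adjustment in each of 15 comparisons and calls at an adjusted p under 0.05. The number of arrays limits the precision. The members and lists were chosen with earlier results of these data known. Named genes are the members, the 2 called genes of each list with the largest allograft-isograft difference per day, and the 3 genes most like each member.

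Alternatives changed the filter (none, or log2 of 7), the weighting of arrays, the variance model, the scaling (quantiles again, or medians), the samples fitted (compared groups only, without both arrays that stand apart, or without each array in turn) and the summary over probe sets, or added the replicate number as a block. Replicate numbers did not pair arrays, since deviations of same-numbered arrays had a median r of 0.039.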

Additional observations from a re-analysis of the deposited data

Results flagged for a closer look

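Of the 70 sets of 5 arrays (10 genes in 7 groups), 4 held an array far from the other 4, by a gap above 0.71 of the whole range, and chance gives about 1 in 20 such sets. Mmp8 read 3.81 in native replicate 5, an array that stands apart, while the other native arrays read 2.64 to 2.93. Mmp14 read 6.08 in Iso-4 replicate 2, where the other Iso-4 arrays read 9.01 to 9.29. Timp2 read 8.71 in the same array, where the others read 10.07 to 10.44. Timp2 read 12.04 in Iso-14 replicate 1, where the others read 10.99 to 11.18.

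The allograft-isograft difference was not the same at days 4 and 14 for 5 genes, by limma's test of the change in that difference. It grew by 2.24 for Mmp8, 3.15 for Mmp9, 2.64 for Mmp13 and 2.83 for Timp1, and changed by -1.60 for Timp3.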

How the results depend on the processing

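Of 66 called differences of single genes, none changed direction under any alternative run, and 48 kept their call under all of them. The call was lost for 11 under at least 1 alternative other than the omission of a single array, fits of the compared arrays alone included. It was lost for 16 under at least 1 omission of a single array. Of the 84 not called, 21 were called somewhere and 27 changed sign, uncalled both times. With only the compared arrays fitted, the count of called genes was 0 in place of 2 for Allo-25 against Iso-25, 6 in place of 3 for Allo-14 against Allo-4, and 1 in place of 3 for Allo-25 against Allo-14. For Allo-14 against Allo-4 it was 6 with array weights and 5 without the 2 arrays that stand apart. For the change of the allograft-isograft difference from day 4 to 14 it was 3 in place of 5 with no filter. Omitting single arrays gave 0 to 3 for Allo-25 against Iso-25, 2 to 5 for that change, and 0 to 2 for the change from day 14 to 25. The causes were not tested, beyond fewer arrays in some fits. The other counts stayed within 1.5 times of those reported.

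With the replicate number as a block 6 of 10 genes were called for Allo-14 against Iso-14, as without it, and 4 in place of 5 for the change from day 4 to 14. Deviations of same-numbered arrays correlated at -0.422 to 0.467, and 8 of 35 arrays were closest to their own number, so the numbers were not taken as pairs.

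No detection calls were used, so levels of Mmp8, Mmp12 and, in 3 of 5 arrays, Timp1 in native trachea are read near background and their folds depend on the authors' background model. The same holds for Mmp3 in native replicates 4 and 5. It holds too for Mmp8 in most arrays of Iso-14, Iso-25 and Allo-25, which read under 5.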
